A study of Drosophila montana with 23 samples.

Results

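Early termination of reproductive diapause was compared with its autumn maintenance in 218 genes of Drosophila montana, all those of the 219 genes in the list of a custom array for which a probe was found, on 6 of the 23 arrays of the series. The 3 arrays of the 220D group (replicates a, b and c) were set against the 3 arrays of the 50D group. Both groups consisted of whole females of the isofemale strain 175OJ8, which had been moved within a day of eclosion into a climate chamber that followed the seasons of northern Finland, in short days that induce diapause. The 50D females were 50 days old, in autumn, and kept up diapause before the winter. The 220D females were 220 days old and were collected in spring, 10 days after the end of a winter spent in cold and constant darkness. Their ovaries were still pre-vitellogenic, and the study places them at the very start of the termination of diapause. The array titles mark the 50D females as D and the 220D females as OFF10. Each array held RNA pooled from a pair of females of this single strain. Age, season, day length, temperature and the winter itself all differed between the groups at once and cannot be told apart.

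Reproductive diapause is a hormonally controlled arrest in which a female stops her ovaries before yolk is laid down, stores fat and glycogen, and becomes tolerant of cold. Short days induce it, the circadian clock is thought to take part in reading them, and it is kept up through autumn and winter until warmth and light allow the ovaries to grow. The array carried genes of the clock and of vision, heat shock proteins, enzymes of fat and sugar metabolism, genes of behaviour and genes linked to cold, so the comparison asks which of them differed between females entering winter and females that had left it, at the same ovarian stage.

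All levels are log2 hybridization intensities after quantile normalization, and 1 unit is a doubling. They can be compared between arrays for a gene but not between genes. A gene was called upregulated or downregulated where limma gave an adjusted p below 0.05 and the fold change was at least 2. Between 63.5% and 74.0% of the gene spots of the 50D arrays and between 70.3% and 78.6% of those of the 220D arrays were well above background. Only 6 genes were near background on all arrays of both groups, 1 gene (disco) on the 50D arrays alone and 1 gene (Pi3K92E) on the 220D arrays alone. Each of the 3 slides held 1 array of each group. One array outside the comparison, 7ND c, stood apart from all the others, with 98.5% of its spots well above background. It entered the comparison through the quantile normalization, the spread shared by all groups and the choice of the brightest probe of each gene over all 23 arrays. The fits without 7ND c kept that choice of probe. The root mean square SD of a gene was 0.29 in 50D and 0.41 in 220D against 1.80 in 7ND. Intervals and adjusted p below come from the fit of all 23 arrays unless stated. For some genes the intervals were wider and the adjusted p higher than without 7ND c.

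Few genes were called between the females of spring and those of autumn. Of the 218 genes 5 were called, or 2.29%: the immunoglobulin gene turtle (tutl), the blue light receptor cryptochrome (cry) and the cAMP phosphodiesterase dunce (dnc) were upregulated in 220D, and the heat shock transcription factor Hsf and the fatty acid desaturase CG9747 were downregulated. A further 2 genes, the eye selector gene eyeless (ey) and the engulfment receptor draper (drpr), passed the adjusted p but stayed under 2-fold. Without adjustment, 29 genes had a limma p below 0.05, and 61 genes when the array 7ND c was left out. Of the 24 gene lists examined, 19 held 0 called genes, and within those lists 0 to 2 genes had an unadjusted p below 0.05 in limma. The median log2 fold change over all genes was 0.01, and 113 of the 218 values were above 0. The 3 arrays of one group lay entirely above those of the other in far more genes than were called: 220D lay above 50D in 47 genes (21.6%) and below it in 37 genes (17%). The counts of separated genes in each list below are to be read against these shares. When arrays were scaled by the spike-in RNA alone, 0 genes were called higher and 27 lower, and the median over all genes moved to -0.89. With no normalization between arrays it moved to -0.46, with 0 genes higher and 9 lower. All values below are therefore relative to the bulk of the genes on this array.

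**Figure D1:**
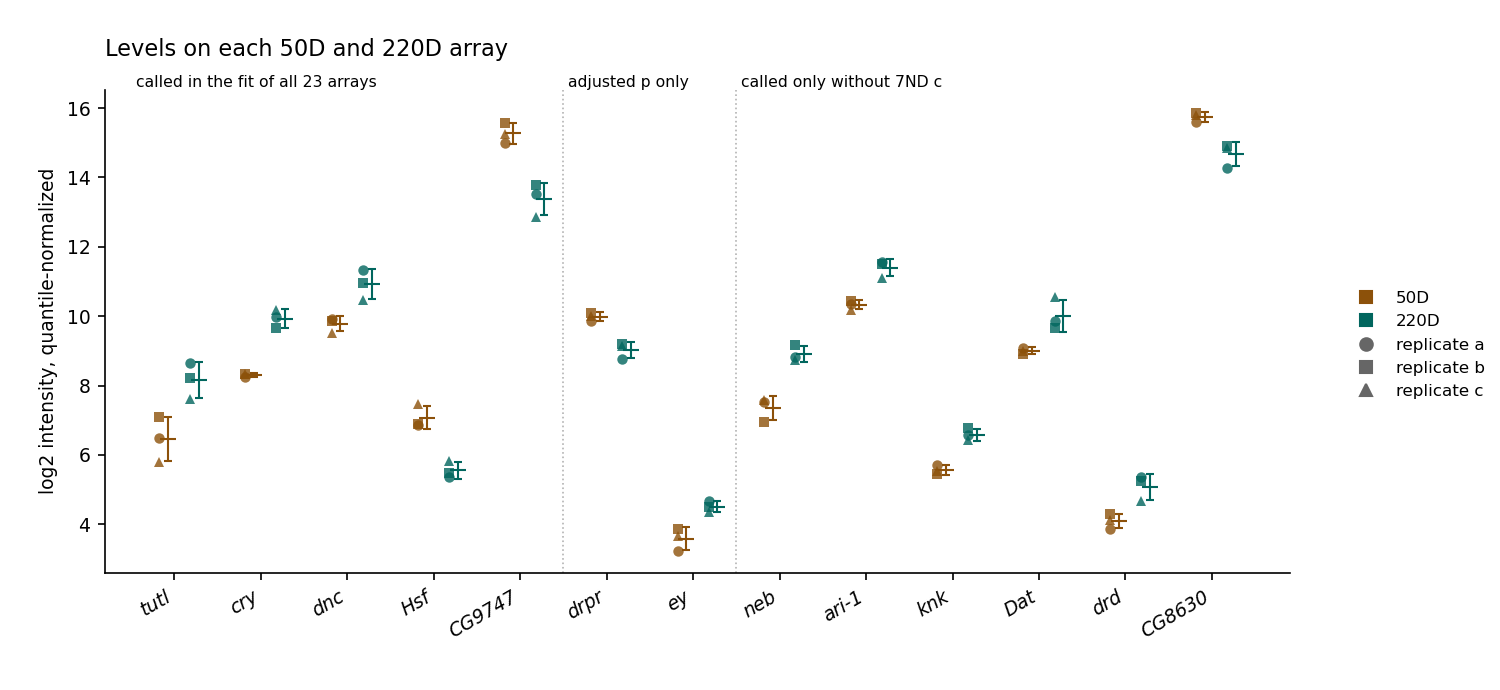
Quantile-normalized log2 intensity (y axis) of 13 genes on the 3 arrays of 50D (brown) and the 3 of 220D (green); symbols mark replicates, and the bars beside them the mean and SD. The genes were chosen for an adjusted p below 0.05 or for a call without the array 7ND c. This choice favours genes whose groups do not overlap. The arrays of the 2 groups do not overlap in any gene plotted, with a gap as narrow as 0.365 in drd. Over all genes, 220D lay wholly above 50D in 21.6% and wholly below it in 17%.

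Turtle encodes an immunoglobulin protein of neuronal surfaces known in D. melanogaster for coordinated movement and for spacing of axons and dendrites. Its level on the 50D arrays was 6.50, 7.09 and 5.80 and on the 220D arrays 8.66, 8.22 and 7.63. All 220D arrays were above all 50D arrays, though both groups were wide. The difference was 1.71 ± 0.33 (SE) on the log2 scale, a 3.26-fold increase (adjusted p = 0.0141). Of its 8 probes above background, 7 were higher in 220D, and the 8 ranged from -0.08 to 1.71. Within the slides the difference was 1.72, 0.54 and 2.86. With the mean of all probes in place of the brightest, the value fell to 0.72 and the call was lost (adjusted p = 0.0711); spike-in scaling (0.81, adjusted p = 0.225) and no normalization between arrays (1.24, adjusted p = 0.17) also ended it.

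Cryptochrome is the blue light photoreceptor that resets the clock of the fly each day by sending TIMELESS to degradation. Its 50D arrays were tight, at 8.24, 8.33 and 8.34, and its 220D arrays stood at 9.97, 9.65 and 10.18. The gap between the groups, 1.31, was larger than the SD of 50D (0.05) and of 220D (0.27). The difference was 1.63 ± 0.40, 3.09-fold (adjusted p = 0.025), and all of its 5 probes above background were higher in 220D, by 0.91 to 1.67. The call ended under spike-in scaling (0.81, adjusted p = 0.242) and with no normalization between arrays (1.24, adjusted p = 0.13). The within-slide values were close to each other, at 1.403, 1.85 and 1.63.

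Dunce degrades cAMP and is best known in D. melanogaster for its mutants, which learn poorly. The levels were 9.93, 9.87 and 9.53 in 50D and 11.33, 10.96 and 10.48 in 220D, with 220D c nearest to the autumn arrays. The difference was 1.15 ± 0.27, 2.22-fold (adjusted p = 0.025), and all 14 probes above background shared its direction, with values of 0.54 to 1.15. The call of dnc ended under 75th percentile scaling (0.88, adjusted p = 0.255), with no normalization between arrays (0.43, adjusted p = 0.398) and under spike-in scaling, where its value was -0.009 (adjusted p = 0.984). With the mean of all probes it fell under 2-fold (0.84, adjusted p = 0.00681).

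Hsf, the transcription factor that switches on heat shock genes under heat and other protein stress, was 6.86, 6.90 and 7.46 in 50D and 5.37, 5.47 and 5.83 in 220D. The lowest autumn array was 1.03 above the highest spring array. The difference was -1.52 ± 0.37, a 2.86-fold decrease (adjusted p = 0.025), and the 4 probes above background lay between -1.83 and -1.52. After normexp background correction the fold change fell under the minimum (log2 fold change -0.81, adjusted p = 0.0404), and with the mean of all probes the call was lost (-1.41, adjusted p = 0.0711).

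CG9747 encodes an acyl-CoA desaturase, an enzyme that puts double bonds into fatty acids. It stood at 14.98, 15.58 and 15.24 in 50D and at 13.53, 13.77 and 12.87 in 220D. This was the largest difference among the 218 genes, -1.88 ± 0.46 or 3.68-fold (adjusted p = 0.025). All of its 8 probes were lower in 220D, by values from -2.35 to -0.64. The chosen probe is named as a reverse complement in the array design, and the other orientation gave the same direction.

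Of the 2 genes under 2-fold, drpr encodes the receptor by which glia and other phagocytes clear dying cells and severed axons. It lay between 9.85 and 10.10 on the 50D arrays and at 8.76, 9.20 and 9.13 in 220D, a difference of -0.95 ± 0.24 (adjusted p = 0.0276), and its 6 probes were all lower, by as little as 0.02. Eyeless, the master gene of eye development, was a dim gene, at 3.24, 3.87 and 3.66 in 50D and 4.67, 4.50 and 4.34 in 220D. It was above background on 2 of the 3 autumn arrays, and its difference of 0.91 ± 0.21 (adjusted p = 0.025) shrank to 0.18 after normexp background correction (adjusted p = 0.383).

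The calls rested on few arrays. With slide as a block the same 5 genes were called. With any 1 of the 6 arrays left out, tutl kept its call only without 50D b (adjusted p = 0.00387) and without 220D c (adjusted p = 0.00647), and dnc only without 220D c (adjusted p = 0.0212), while cry, Hsf and CG9747 lost theirs each time, with adjusted p between 0.0572 and 0.167 and no change of sign. Without the array 7ND c, in contrast, 11 genes (5.05%) were called, 8 upregulated and 3 downregulated, the 5 genes above among them, and leaving out 1 further array then kept 4 or 5 of those 5. Hsf was lost without 50D c (adjusted p = 0.0542), CG9747 without 50D b (adjusted p = 0.0565), and dnc fell under 2-fold without 220D a (log2 fold change 0.96).

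The other 6 genes that were called once 7ND c was left out are described here because of that result. The kinesin gene neb was 7.54, 6.96 and 7.58 in 50D and 8.81, 9.18 and 8.73 in 220D. Its difference in the fit of all arrays was 1.55 ± 0.52 (adjusted p = 0.141, and 0.0275 without 7ND c), but only 4 of its 8 probes shared that direction. The ubiquitin ligase gene ari-1 was 10.35, 10.44 and 10.19 in autumn and 11.57, 11.52 and 11.11 in spring. All 8 of its probes were higher in 220D, by 0.38 to 1.07, and its adjusted p changed from 0.355 to 0.00291 without 7ND c. Dat, the arylalkylamine N-acetyltransferase that inactivates dopamine and serotonin and acts in the tanning of the cuticle, was 9.09, 8.90 and 9.01 in 50D and 9.85, 9.65 and 10.54 in 220D, with adjusted p of 0.161 and 0.0388. Knickkopf (knk), which organizes chitin in the cuticle, was 5.72, 5.46 and 5.53 against 6.57, 6.77 and 6.42, with adjusted p of 0.104 and 0.0374 and within-slide differences of 1.05, 0.96 and 1.04. The gene drd was dim, at 3.88, 4.30 and 4.12 against 5.36, 5.24 and 4.66, and only 1 of its 2 probes above background was higher in spring. CG8630, a desaturase like CG9747, was 15.59, 15.86 and 15.81 in 50D and 14.28, 14.91 and 14.84 in 220D, a difference of -1.08 ± 0.35 with adjusted p of 0.129 and 0.0475. Of its 8 probes 6 were lower, and 2 were higher, by up to 2.38.

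Genes that sense light showed no common shift besides cry. None of the 5 opsins was called, none separated the groups, and their median log2 fold change was 0.08 against 0.01 over all genes. The opsin with the largest value was Rh5, the blue-sensitive opsin of some inner photoreceptors, at 9.81, 10.04 and 9.76 in 50D and 11.52, 10.85 and 9.97 in 220D. The 220D c array fell within the autumn range, and the difference of 0.91 had a 95% interval of 0.11 to 1.70 (adjusted p = 0.299). The major opsin ninaE differed by -0.24 (interval -1.04 to 0.56). Of the 13 other phototransduction proteins 0 were called, 3 lay wholly above and 10 overlapped, with a median of 0.13. Those 3 were inaC, the eye protein kinase C (0.80, interval 0.03 to 1.58), inaD, the scaffold that holds the signalling complex together (0.78, interval 0.04 to 1.52), and rdgB, a lipid transfer protein (0.48, interval -0.67 to 1.64). Their adjusted p were 0.352, 0.349 and 0.83. For inaD the arrays were 8.87, 9.05 and 8.64 in autumn and 10.06, 9.41 and 9.44 in spring. Arrestin 2 (Arr2), which shuts off rhodopsin, was 11.27, 11.20 and 11.23 against 11.60, 11.24 and 11.10, a difference of 0.08 (interval -0.77 to 0.92).

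In the circadian clock, 1 of 14 genes was called (cry), 3 lay wholly below in 220D and 10 overlapped, and the median was -0.08, on the same side of 0 under each scaling tried relative to all genes. Period (per), which with timeless forms the negative limb of the clock, was 7.65, 7.91 and 7.72 in 50D and 7.91, 7.83 and 8.42 in 220D, a difference of 0.29 (interval -0.61 to 1.20). Timeless (tim) was 5.26, 5.66 and 6.29 against 4.84, 4.33 and 5.54, and its difference of -0.83 had an interval of -1.88 to 0.21. Vrille (vri), a repressor of Clock, differed by -1.24 at its chosen probe without overlap of the arrays (9.55, 10.18 and 9.57 against 8.40, 7.85 and 9.32; interval -2.83 to 0.35). Only 2 of its 6 probes shared that direction, and others were higher by up to 1.28. The hour of the day at which females were frozen is not given in the sources used here, and its part in the levels of clock genes was not tested.

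Chaperones gave both directions. Of 7 members of the Hsp70 family 0 were called, 3 lay above and 1 below, with a median of 0.14 that turned to -0.30 relative to all genes under 75th percentile scaling. Hsc70-3, the chaperone of the endoplasmic reticulum, was 12.24, 12.43 and 12.21 in autumn and 12.91, 12.68 and 13.32 in spring (0.68, interval -0.01 to 1.36, adjusted p = 0.373). CG7182, whose 16 probes were all higher, differed by 0.64 (adjusted p = 0.717, and 0.0224 without 7ND c but still under 2-fold). Hsc70-5 of the mitochondria differed by 0.32. Hsc70Cb, a nucleotide exchange factor, was 9.83, 9.47 and 9.68 against 8.93, 9.10 and 9.19, a difference of -0.59 (adjusted p = 0.637, and 0.074 without 7ND c). Hsc70-4, the abundant cognate, differed by 0.01 (interval -0.47 to 0.49), and Hsc70-2 by -0.28. Only 2 of the 12 probes of Hsc70-2 above background shared that direction, and others were higher by up to 1.45.

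Among 7 J proteins, which hand clients to Hsp70, 0 were called, 2 lay above and 2 below. DnaJ-1, the main partner of Hsp70 in the heat shock response, was 10.91, 11.50 and 11.13 in 50D and 10.39, 10.13 and 10.28 in 220D. All of its 10 probes were lower, by 0.57 or more, and the difference was -0.91 ± 0.30 (adjusted p = 0.139, and 0.0173 without 7ND c but still under 2-fold). Hop, the co-chaperone that links Hsp70 and Hsp90, was 10.41, 10.59 and 10.68 against 9.83, 9.82 and 9.79, with all 16 probes lower and a difference of -0.75 whose interval ran from -2.27 to 0.78 in the fit of all arrays (adjusted p = 0.796, and 0.0159 without 7ND c). Hsp83, the Hsp90 of the cytoplasm, differed by only -0.03. The 7 genes of Hsp90, Hsp60 and their co-chaperones had 0 calls, 3 genes wholly below and a median of -0.11.

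The 5 small heat shock proteins overlapped without exception, with a median of -0.32. Hsp26 was 10.80, 10.65 and 11.24 in autumn and 11.94, 9.55 and 9.05 in spring, so that 220D a was the highest and 220D c the lowest of the 6 arrays. Hsp23 followed the same arrays, with 11.31, 10.98 and 11.41 against 11.85, 10.33 and 9.86. Their differences of -0.72 (interval -2.43 to 0.998) and -0.55 (interval -2.12 to 1.02) were within the spread of the spring females. Hsr_omega, the noncoding RNA of the heat shock response, differed by 0.06 (interval -0.41 to 0.52).

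The fatty acid desaturases and cytochrome b5-related genes had the largest share of separated groups on the low side, with 5 of 8 genes wholly below in 220D and 1 wholly above, against 17% and 21.6% of all genes, and 1 call (CG9747). Their median log2 fold change was -0.54. It stayed below that of all genes under each scaling tried, but was -0.14 relative to it when all probes of a gene were averaged. Besides CG9747 and CG8630, the genes below were CG9743 (-0.70, adjusted p = 0.268), desat1 (-0.68, adjusted p = 0.349) and desat2 (-0.40, adjusted p = 0.717). Desat1 makes the common monounsaturated fatty acids and the precursors of cuticular hydrocarbons, and stood at 16.10, 16.39 and 16.46 in 50D and at 15.31, 15.70 and 15.89 in 220D. CG15531 went the other way, at 13.69, 13.51 and 13.77 against 14.26, 14.35 and 14.70, and all of its 8 probes were higher in spring (0.78, interval -0.19 to 1.75, adjusted p = 0.568).

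In carbohydrate metabolism 0 of 8 genes were called and all 8 overlapped, with a median of -0.29. Trehalase (Treh), which splits the blood sugar of insects, was 9.46, 9.21 and 9.79 against 8.22, 8.59 and 9.70, and Phosphoglucomutase (Pgm), at the branch to glycogen, was 12.80, 13.42 and 13.46 against 14.33, 13.71 and 13.43. Only 4 of the 7 probes of Pgm were higher. Alcohol dehydrogenase (Adh) differed by 0.36 (interval -0.61 to 1.34). The enzymes of glycolysis Gapdh1, Gapdh2 and Tpi differed by -0.31, -0.32 and -0.29.

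**Figure D2:**
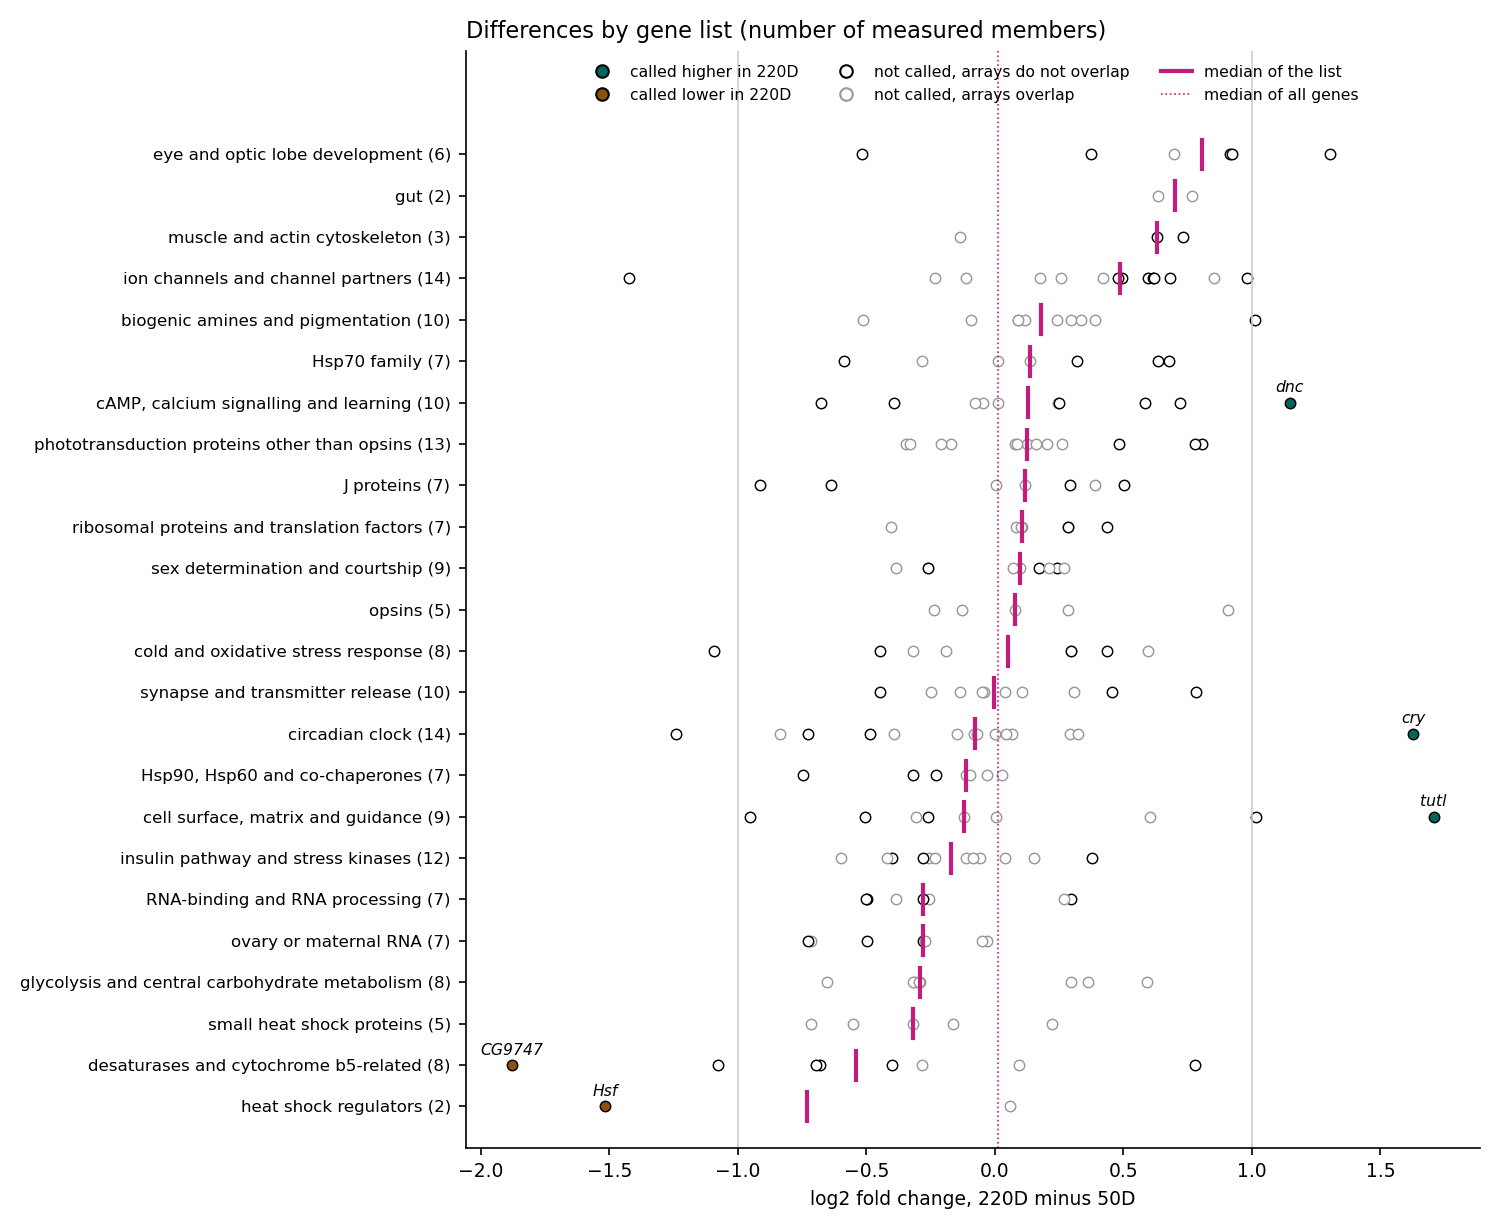
Log2 fold change of 220D minus 50D (x axis) of the members of 24 gene lists (rows, with the number of measured members); filled points are called genes, black rims mark genes whose arrays do not overlap, and vertical bars are list medians. Medians run from -0.73 for 2 heat shock regulators to 0.81 for eye and optic lobe development, around 0.01 for all 218 genes.

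Genes of neurons were spread over both directions. In the cAMP, calcium and learning list, 1 of 10 genes was called (dnc), 4 lay above and 2 below, with a median of 0.13. G-salpha60A, the G protein that activates adenylyl cyclase, was 11.49, 11.28 and 11.48 in 50D and 12.46, 12.04 and 11.92 in 220D, with all 10 probes higher (0.72, interval -0.06 to 1.51, adjusted p = 0.408). The adenylyl cyclase rutabaga (rut), which makes the cAMP that dnc removes, differed by -0.39 (adjusted p = 0.83). Foraging (for), a cGMP-dependent kinase of feeding behaviour, was 10.98, 10.74 and 10.75 against 10.11, 10.49 and 9.85, and all of its 8 probes were lower (-0.68, interval -1.16 to -0.20, adjusted p = 0.141).

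Of 14 ion channels and their partners 0 were called, 7 lay wholly above and 1 below, against 21.6% and 17% of all genes, with a median of 0.49. Of the 14, 12 were among the 73 genes with the lowest signal, whose median was 0.07, and the list median fell to 0.19 relative to all genes after normexp background correction. The gap junction gene shakB was 4.76, 5.33 and 4.43 against 5.98, 5.67 and 5.79 (0.98, adjusted p = 0.719, and 0.0779 without 7ND c). The calcium-activated potassium channel slo differed by 0.85. The potassium channel Shaker (Sh) was the gene below, at 6.79, 6.84 and 7.32 against 5.23, 4.72 and 6.72 (-1.42, interval -2.74 to -0.11, adjusted p = 0.344), but only 1 of its 3 probes above background was lower.

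The 6 genes of eye and optic lobe development had the highest median, 0.81, with 0 called. In this list 4 genes lay above and 1 below, against 21.6% and 17% of all genes. This list too held 5 dim genes, and its median was 0.19 relative to all genes after normexp background correction. Besides ey, glass (gl), a factor that photoreceptors need, was 5.18, 5.07 and 5.13 in autumn and 6.36, 6.18 and 5.60 in spring (0.92, interval 0.12 to 1.72, adjusted p = 0.299). Disco was near background on all 50D arrays, and its mean was at least 1.8-fold higher in 220D (5.15, 4.44 and 3.304, adjusted p = 0.373). Here the bound sets the mean of the brighter group against the lowest signal well above background, or the own signal of the probe where higher, on each array of the dimmer group. It is a bound on the difference of these means and carries no error.

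In the synapse list 0 of 10 genes were called, with a median of 0.00. Synaptotagmin (syt), the calcium sensor of transmitter release, was 5.60, 6.33 and 5.79 against 6.92, 6.52 and 6.63 (0.78, adjusted p = 0.568), and dynamin (shi) differed by 0.46, while Ace, which breaks down acetylcholine, differed by -0.45 with 1 of 5 probes in that direction. Of 10 genes of biogenic amines and pigmentation 0 were called in the fit of all arrays, and Dat was the only one whose groups did not overlap. Dopa decarboxylase (Ddc), which makes dopamine and serotonin, was 10.53, 10.68 and 10.27 against 10.38, 12.42 and 9.83, so that 220D b alone stood out. The serotonin transporter serT differed by -0.51. Of the 9 sex determination and courtship genes 0 were called, with differences between -0.38 (nonA) and 0.27 (mle); fru was 7.97, 8.01 and 7.85 against 8.25, 8.06 and 8.02, and tra differed by -0.26.

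Among the surface and matrix genes, tutl was the 1 called of 9. LanA, the laminin chain of the basement membrane, lay wholly below in 220D with all 8 probes lower (-0.51, adjusted p = 0.81). Of 12 genes of insulin signalling and stress kinases 0 were called, 2 lay below and 1 above (bsk, 0.38), with a median of -0.17. The insulin receptor InR was 6.26, 6.22 and 6.31 in 50D and 5.80, 6.11 and 5.68 in 220D (-0.40, interval -0.82 to 0.02, adjusted p = 0.373). The translation repressor Thor, a target of the insulin and FOXO pathway, was 13.25, 13.45 and 13.00 against 13.29, 12.56 and 13.08, and differed by -0.26 (interval -0.84 to 0.33). PEK, a kinase that slows translation under stress, differed by -0.42. Pi3K92E was near background on all 220D arrays and above it on only 1 of the 50D arrays. The mean of the autumn group was at least 1.29-fold higher, but the interval of the difference, -2.185 to 0.985, spanned 0 (adjusted p = 0.851).

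The 8 genes of cold and oxidative stress had 0 calls, 2 genes above and 2 below. Regucalcin, a calcium-binding protein linked to cold acclimation, was 14.31, 14.07 and 13.99 in autumn and 12.85, 12.78 and 13.46 in spring (-1.09 ± 0.39, interval -1.91 to -0.27, adjusted p = 0.161, and 0.0762 without 7ND c), with 10 of 16 probes lower. P5cr, which makes proline, was 10.15, 9.73 and 9.85 against 9.60, 9.43 and 9.38 (-0.45, interval -0.88 to -0.01, adjusted p = 0.355). Eip71CD, a methionine sulfoxide reductase, differed by 0.59, and couch potato (cpo), an RNA-binding protein linked to diapause in D. melanogaster, was 8.24, 8.34 and 8.25 against 8.67, 8.59 and 8.46 (0.30, interval -0.25 to 0.85, adjusted p = 0.769). CG6785, which the study names as upregulated in several phases of diapause, was read from the only probe of the gene above background. It was 8.52, 8.29 and 7.95 against 9.67, 9.79 and 9.12 (1.27 ± 0.45, interval 0.32 to 2.22, adjusted p = 0.161).

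The 7 ribosomal proteins and translation factors, all among the 73 genes with the highest signal, had 0 calls. Their differences lay between -0.40 (Ef1alfa48D) and 0.44 (tko), with 2 genes above, RpL27A and tko. In the list of RNA-binding genes, 0 of 7 were called, 3 lay below and 1 above, and the largest difference was that of the splicing factor gene Prp5 (-0.50, adjusted p = 0.65).

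Markers of tissues were examined because whole females were used, in which fewer cells of a type and less RNA per cell cannot be told apart. Mhc, the myosin of all muscles, and Act_42A, a cytoplasmic actin, lay above in 220D with all of their 6 and 12 probes higher. Mhc was 15.10, 15.75 and 15.02 against 16.20, 15.76 and 16.11 (0.73, interval 0.06 to 1.41), and Act_42A 12.81, 13.24 and 13.15 against 13.48, 13.33 and 14.28 (0.63, interval 0.05 to 1.21), both with an adjusted p of 0.344. Under 75th percentile scaling Act_42A differed by 0.06 and Mhc by 0.61, and the values were -0.38 and 0.16 with no normalization between arrays and -0.82 and -0.27 with spike-in scaling. The giant muscle protein sls overlapped (-0.13). The gut protease Jon25Bi was 12.85, 12.49 and 12.98 against 13.32, 12.36 and 14.54, and the carotenoid receptor ninaD differed by 0.77 with overlap. The 7 genes with maternal or ovarian RNA were all below 0, from -0.73 (tws) to -0.03 (Hsp83), with 0 calls. Of these, 3 genes lay wholly below, against 17% of all genes. Their mean level was 9.61 to 9.88 on the 50D arrays and 9.21 to 9.69 on the 220D arrays, overlapping. The 13 photoreceptor markers had means of 9.96 to 10.20 in 50D and 9.89 to 10.56 in 220D, and the 6 neuron markers 5.86 to 6.22 and 5.72 to 6.31. Both ranges overlapped, 0 of these markers were called, and none was near background in both groups. No yolk protein gene and few genes of the fat body are among the genes, so the share of fat body was not tested.

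The levels at 150 days, in winter (150D), separate genes that differed by that collection from those that differed after it. The step from 150D to 220D holds the rest of the winter as well as 10 days of spring. The 3 comparisons share arrays, so they are only set side by side. In the same fit, 15 genes (6.88%) were called in 150D against 50D, 5 higher and 10 lower, and 11 genes (5.05%) in 220D against 150D, 7 higher and 4 lower. Hsf was already low in winter, at 5.49 ± 0.36 (SD, n = 3), a difference of -1.59 from 50D (adjusted p = 0.0106), and differed by 0.07 from winter to spring. Tutl was likewise higher by 1.22 in winter (adjusted p = 0.0245), and ey by 0.81 (adjusted p = 0.0217). For cry the difference lay after the 150D collection: 7.93 ± 0.26 in 150D, and an increase of 2.001 from there to 220D (adjusted p = 0.00312). CG9747 stood at 15.83 ± 0.14 in winter and fell by 2.44 to spring (adjusted p = 0.00198), and drpr was 9.98 ± 0.05 in winter and fell by 0.95 (adjusted p = 0.0214). Dnc gave 0.61 and 0.54 in the 2 steps, neither called (adjusted p of 0.275 and 0.291).

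**Figure D3:**
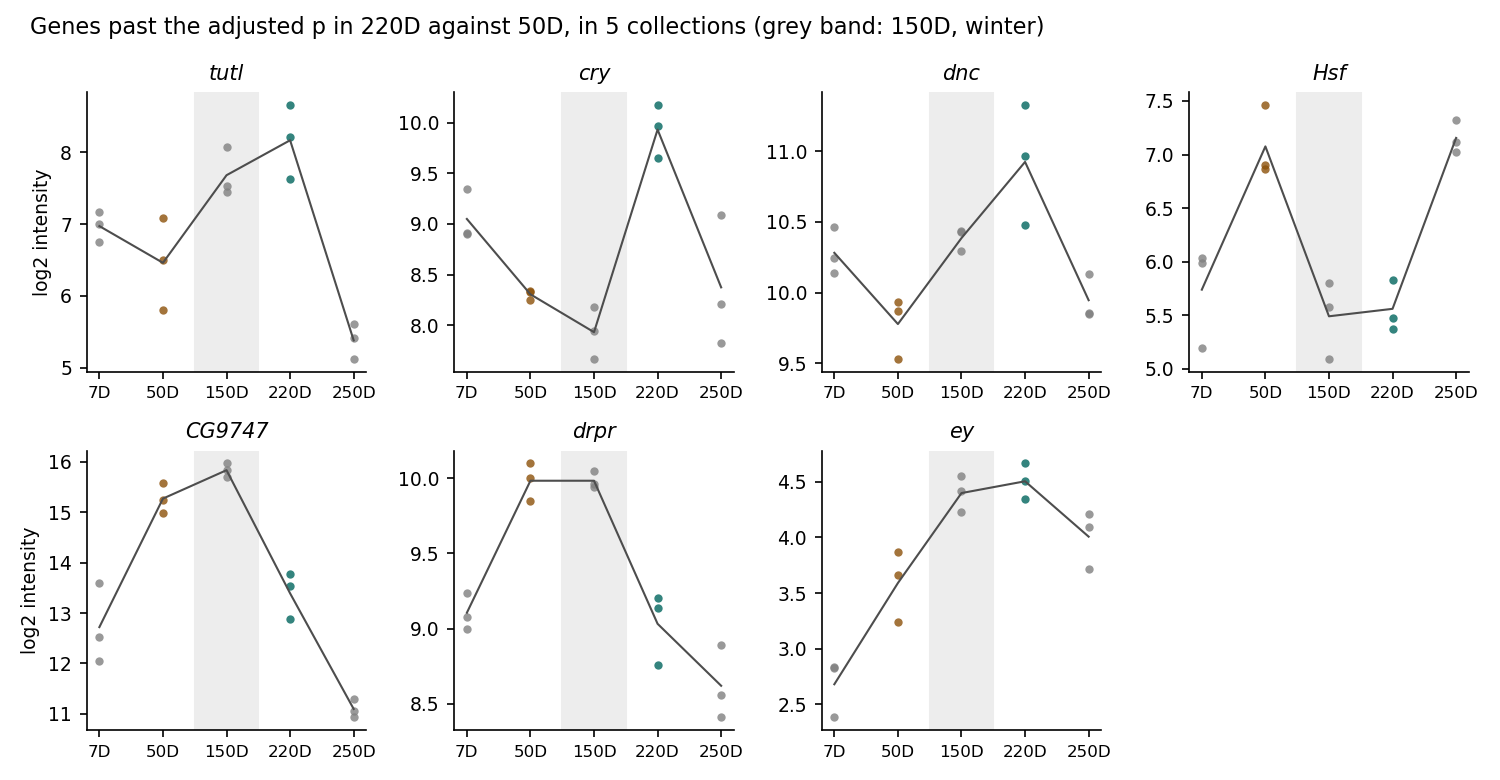
Log2 intensity (y axis) of the 7 genes with an adjusted p below 0.05 in 220D against 50D, on the 3 arrays of each of 5 collections of females (x axis) destined to diapause; 250D females had mature ovaries, lines join the means and each panel has its own scale. Hsf, tutl and ey differed from 50D by winter (150D), cry, CG9747 and drpr between winter and spring.

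The spring level of these genes was not an end point. In 250D, 30 days after winter and with mature ovaries, tutl was at 5.38 ± 0.24, cry at 8.37 ± 0.65, dnc at 9.95 ± 0.16 and Hsf at 7.16 ± 0.15 (SD, n = 3 each), while CG9747 was at 11.10 ± 0.19 and drpr at 8.62 ± 0.25, both below their level in 220D. At 7 days (7D), at the start of diapause, CG9747 stood at 12.72 ± 0.79, Hsf at 5.74 ± 0.47 and cry at 9.05 ± 0.25.

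Of the genes called in 150D against 50D, some stood near their autumn level in spring and others did not. Hsf and tutl were still called in 220D against 50D. Without a call there, the differences were 1.27 in CG6785, -1.09 in regucalcin, -0.70 in CG9743, -0.68 in desat1 and 0.63 in Jon25Bi. They were smaller in Cyt-b5-r (-0.28) and trp (-0.17). In 6 genes both steps were called in opposite directions, and none was called in the same direction in both; none of the 6 was called in 220D against 50D, where their differences lay between -0.40 (desat2) and 0.36 (Adh). Such a return is in part given by this choice of genes and by the shared 150D arrays, which enter both steps with opposite sign. Adh was 10.29, 9.89 and 10.23 in autumn, 7.56 ± 0.78 in winter and 9.84, 10.32 and 11.34 in spring. Arr2 differed by -2.51 and then by 2.59, and the G protein subunit Gbeta76C of photoreceptors by -1.50 and 1.62. Hsc70-2 gave 1.26 and -1.54 at its chosen probe, and Thor 1.27 and -1.52.

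**Figure D4:**
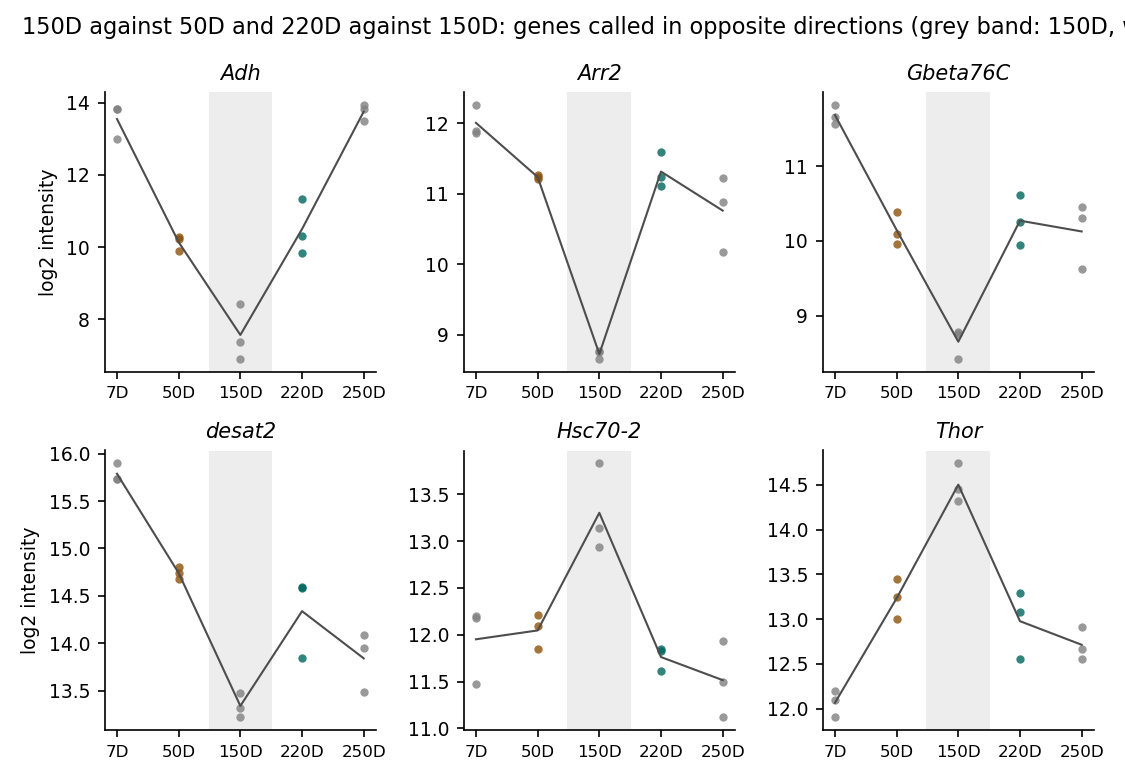
Log2 intensity (y axis) of the 6 genes called both in 150D against 50D and in 220D against 150D, on the 3 arrays of each of 5 collections (x axis); lines join the means and each panel has its own scale. Adh, Arr2, Gbeta76C and desat2 were lowest in winter, Hsc70-2 and Thor highest, and the 50D and 220D arrays lie near each other.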

How the data were processed

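RNA of pooled pairs of whole females was labelled with Cy3 and hybridized to one-colour custom Agilent arrays, read by the authors with Feature Extraction 10.7.1.1 into deposited processed intensity values, already background-subtracted. The authors quantile-normalized their data and used limma; their deposited table of intensity values served as an alternative. Here intensities of 14800 gene spots were log2-transformed, quantile-normalized over 23 arrays and averaged over the 8 spots of each of 1850 probes, without spots flagged as outliers unless all 8 were (43 cases); each gene was read from its brightest probe. Group means were fitted with limma 3.58.1 (R 4.3.3) on all 23 arrays, with Benjamini-Hochberg adjustment over 218 genes, after a check on simulated data. SE are limma's. Exact tests of 3 against 3 arrays cannot go below 0.1 and were not used. Of the chosen probes, 71 are named as forward and 57 as reverse complement; 90 carry no orientation, and strand was not resolved. Nothing states how the pools relate to cultures, so p-values measure the spread between these arrays. Named genes were the called genes without overlap, the 3 largest differences of each of 24 lists and genes the study discusses; members, lists and rule were chosen with earlier results of these data known. No sequence or genome position was used here.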

Additional observations from a re-analysis of the deposited data

How the results depend on the processing

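The number of genes higher in 220D was 3 and lower 2. With a filter on dim probes and with slide as a block the counts were again 3 and 2, with 75th percentile scaling 2 and 3 (dnc not called, drpr called), and with no minimum fold change 4 and 3. With no normalization between arrays the counts were 0 and 9, with spike-in scaling 0 and 27 (dnc changed sign, to -0.009), and with the mean of all probes 1 and 1 (cry and CG9747; tutl, dnc and Hsf were not called). With normexp correction 1 gene was lower, and the authors' table gave 7 higher. Without 7ND c, 8 genes were higher; the 6 arrays alone gave 8 and 4, as did the 15 arrays of 7D, 50D, 150D, 220D and 250D, a choice made after seeing the data. Leaving out each of the 6 arrays gave 0 to 2 genes higher and 0 lower, and, with 7ND c also left out (chosen after seeing the data), 3 to 10 higher and 1 to 4 lower. The cause was not tested. The array 7ND c enters through normalization, the shared spread and the choice of the probe of each gene, and the fits without 7ND c kept that choice. Deviations of same-letter arrays correlated at -0.14, -0.33 and 0.24. With only 3 such pairs, these values cannot decide whether the replicate letters pair the arrays. With the letter as a replicate block 3 genes were higher and 3 lower. Arrays of one slide correlated at 0.35, -0.01 and -0.24. Precision was limited by the number of arrays and by the shared spread: the SE of Hop was 0.73 with 7ND c and 0.19 without it.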
